A study of Mus musculus with 12 samples.

Results

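The 10 genes described here mark the mural cells of blood vessels, that is pericytes and vascular smooth muscle cells. They were taken by symbol from a fixed list, which was chosen with earlier results of these data known. They are 10 of the 27588 genes that could be joined across the libraries. The genes are Pdgfrb, Cspg4, Notch3, Rgs5, Kcnj8, Higd1b, Vtn, Acta2, Myh11 and Tagln. The data are RNA sequencing counts from 12 libraries labelled as monocytes from the meninges of male C57BL/6J mice, in 4 groups of 3. Mice of the psilocybin, MDMA and vehicle groups all had 18 days of chronic restraint stress before dosing, and tissue was taken 24 h after the dose. Mice of the unstressed group had no restraint, and whether they received vehicle is not given in the labels, nor are doses, ages or the number of mice behind a library. P-values therefore measure the spread between these libraries, which may be technical.

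Pericytes wrap capillaries within the vessel's basement membrane, and smooth muscle cells form the contractile coat of arteries, arterioles and veins. Endothelial cells recruit them by secreting platelet-derived growth factor B, which binds PDGFRB on the mural cell, and keep arterial smooth muscle differentiated through the ligand JAG1, which activates NOTCH3. Contractile genes such as Acta2 and Myh11 are known targets of serum response factor with its co-activator myocardin, acting at CArG boxes. In brain and meninges, mural cells set capillary and arteriolar tone and help to maintain the barrier functions of the endothelium.

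The libraries were made after a magnetic monocyte isolation, yet mural and choroid plexus RNA was present in each of them. Totals ran from 807725 counts in vehicle library 2 to 5136953 in MDMA library 3. Genes with at least 1 count numbered 15342 to 17926 in the drug groups, 10345, 13464 and 9522 in vehicle libraries 1, 2 and 3, and 14321 to 17515 in unstressed libraries. Levels in CPM are scaled to the deposited library total, while log2 differences and tests use TMM-scaled library sizes, with factors from 0.732 in vehicle library 3 to 1.13. Stressed and unstressed libraries were counted with different gene annotations, so that difference and the stress itself cannot be told apart in any comparison with the unstressed group. The 10 monocyte markers summed to 419 ± 309, 963 ± 338, 398 ± 56 and 347 ± 89.4 CPM in the psilocybin, MDMA, vehicle and unstressed groups (SD, n = 3). Among them Cx3cr1, Fcgr1 and Itgam had 1 count each over the 3 vehicle libraries together, and 7 of the 10 were at 0 in vehicle library 1. The list was split in vehicle against unstressed, with 7 negative and 3 positive log2 differences. Lyz2, which supplied most of the vehicle sum, averaged 274 CPM in vehicle and 124 CPM in unstressed libraries. Endothelial markers, 12 in number, gave sums of 1365 ± 389, 1611 ± 130, 1504 ± 37.9 and 1812 ± 504 CPM over these groups, the 12 fibroblast markers 3381 ± 1193, 9898 ± 3453, 3117 ± 2575 and 4971 ± 1446 CPM, and the 10 choroid plexus markers 84049 ± 30376, 32980 ± 11098, 69001 ± 57875 and 31672 ± 13926 CPM. The part of these sums in the results below was not tested. The 10 skeletal muscle markers summed to 0.512 to 20.1 CPM over the 12 libraries.

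The threshold was an adjusted p under 0.05 in edgeR's quasi-likelihood test over the 13945 genes tested, which include all 10. Notch3 was the only one of the 10 past it in any of the 6 pairwise comparisons, and its promoter is shown with that of Hey2, a Notch target gene that was also lower in vehicle than in unstressed libraries. Both are the windows of 250 bases before to 50 bases after the RefSeq start, in GRCm38.p6, written in the direction of transcription. Notch3 at chr17:32166841-32167140 and Hey2 at chr10:30842734-30843033 both lie on the minus strand. Capitals mark TGGGAA on either strand, the core letters of the site bound by RBPJ, the DNA-binding partner of activated Notch receptors.
Notch3: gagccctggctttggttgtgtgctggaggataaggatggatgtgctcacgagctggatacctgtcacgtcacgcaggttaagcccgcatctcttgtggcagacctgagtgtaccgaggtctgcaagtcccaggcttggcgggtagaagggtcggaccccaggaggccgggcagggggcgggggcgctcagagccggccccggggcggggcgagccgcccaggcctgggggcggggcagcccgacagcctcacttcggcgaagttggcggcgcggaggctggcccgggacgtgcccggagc
Hey2: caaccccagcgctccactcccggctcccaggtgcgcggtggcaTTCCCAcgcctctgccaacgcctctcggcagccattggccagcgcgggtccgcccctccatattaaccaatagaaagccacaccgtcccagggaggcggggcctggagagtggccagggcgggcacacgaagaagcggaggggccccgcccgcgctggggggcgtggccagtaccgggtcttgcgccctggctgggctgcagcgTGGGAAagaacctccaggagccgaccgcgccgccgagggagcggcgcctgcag
The Hey2 window holds these letters on the reverse strand from position -207 and on the forward strand from position -3, counted from the start. No match stands in the Notch3 window, and 25.6% of the 32851 RefSeq windows hold at least 1. Of the 10 genes, 6 had a window in the table, and TGGGAA occurred in those of Acta2, Kcnj8 and Vtn. No window of the 6 held an exact CArG box, which 1.63% of all windows do. Allowing 1 C or G among the 6 central bases, Acta2 alone held matches, CCCTATATGG from position -84 and CCTTGTTTGG from position -34. Such a match occurred in 9.98% of all windows, and 2 or more in 0.822%. The Acta2 TGGGAA overlaps its second CArG match.

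The 10 genes together gave 0.233% to 0.562% of a library's counts. Their summed level was 2991 ± 833 CPM in psilocybin, 3312 ± 391 CPM in MDMA, 3514 ± 1443 CPM in vehicle and 3926 ± 1497 CPM in unstressed libraries (SD, n = 3), and the 4 ranges overlapped. Rgs5, Acta2 and Myh11 supplied 78.8% to 91.7% of it. The ratio of the summed 10 genes to the summed endothelial markers lay between 1.41 in unstressed library 3 and 3.61 in unstressed library 1, so the spread within that group spanned all 12 libraries. In bulk libraries such as these, fewer mural cells and less RNA per mural cell cannot be told apart.

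**Figure D1:**
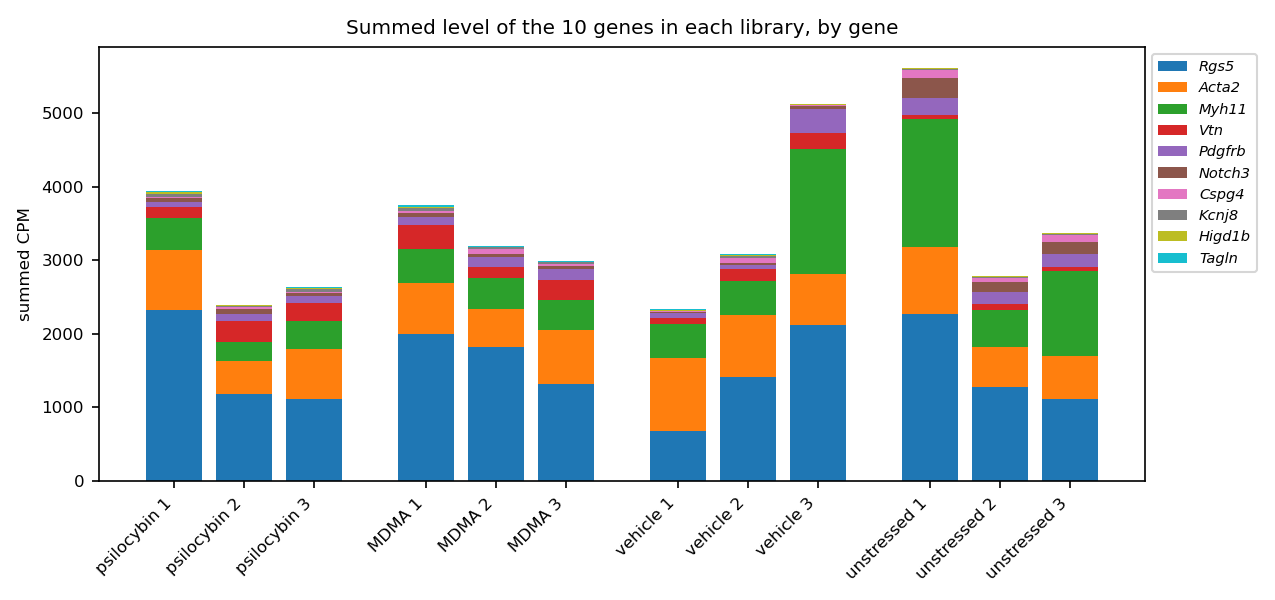
Stacked bars give the summed level of the 10 genes in each library (vertical axis, CPM), split by gene. Rgs5, Acta2 and Myh11 make up most of every bar, and the tallest bars are unstressed library 1 (5621 CPM) and vehicle library 3 (5123 CPM).

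Divided by the exonic length not shared with other genes, Rgs5 and Acta2 stood highest in every group. Rgs5 averaged 339 ± 150, 376 ± 78.4, 308 ± 159 and 340 ± 138 CPM per kb in psilocybin, MDMA, vehicle and unstressed libraries, and Acta2 292 ± 84.5, 295 ± 53.3, 386 ± 68.5 and 242 ± 71.9 CPM per kb (SD, n = 3). Their ranges overlapped in all 4 groups. In the drug groups the next levels were those of Vtn, at 112 ± 35 in psilocybin and 125 ± 43.2 CPM per kb in MDMA, and then Myh11, at 48 ± 12.6 and 56.5 ± 3.44 CPM per kb, with no overlap between neighbours from Acta2 down to Myh11. In vehicle libraries Myh11 (115 ± 93.3 CPM per kb) and Vtn (76.9 ± 35 CPM per kb) overlapped. In unstressed libraries Myh11 averaged 168 ± 92.3 CPM per kb and overlapped with Acta2, while Vtn averaged 37.2 ± 12 CPM per kb and overlapped with Pdgfrb at 31.7 ± 5.72. Cspg4 was lowest in the 3 stressed groups, at 1.91 ± 0.169 CPM per kb in psilocybin, 3.6 ± 2.05 in MDMA and 2.6 ± 2.42 in vehicle, overlapping there with Notch3 (3 ± 1.56). Tagln was lowest in unstressed libraries at 3.26 ± 1.71 CPM per kb, overlapping with Kcnj8.

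**Figure D2:**
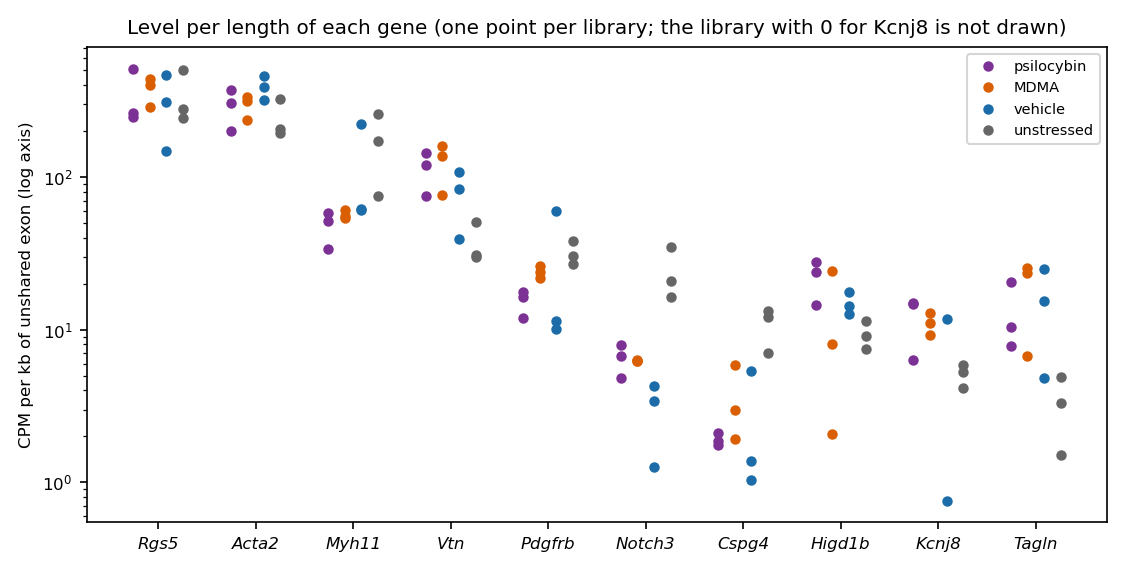
Each point is a library and gives the level of a gene in CPM per kb of unshared exon on a log axis, with the psilocybin, MDMA, vehicle and unstressed groups side by side for each gene. Rgs5 and Acta2 stand at the top in every group, and Kcnj8, which had 0 counts in vehicle library 3, lacks that point.

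Of the 3 receptors and surface proteins, Notch3 fell in vehicle libraries relative to unstressed ones. Notch3 (chr17:32120820-32166852, mm10, minus strand), the Notch receptor that maintains arterial smooth muscle, had 9.66, 26 and 32.8 CPM in vehicle libraries 1 to 3, against 271, 128 and 162 CPM in unstressed libraries. Every vehicle library lay below every unstressed one, as was the case for 17.8% of all genes tested. The fitted log2 difference was -2.8 ± 0.66 (SE; 95% interval -4.2 to -1.39; edgeR adjusted p = 0.0409). In this comparison 3.43% of the 13945 genes tested passed the threshold, 3.21% as lower, so 1 of 10 genes is to be read against a background in which vehicle libraries also held fewer genes. Notch3 has nearly the same exons in both annotations.

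Notch3 stood in between in the drug groups. Psilocybin libraries had 51.5, 60.7 and 36.8 CPM and MDMA libraries 47.1, 48.3 and 47.5 CPM of Notch3. In CPM, all 6 were above the 3 vehicle libraries and below the 3 unstressed ones. Of all genes tested, 20.8% lay likewise above vehicle in psilocybin and 16.8% in MDMA, and 18.5% lay below unstressed in psilocybin and 10.7% in MDMA. The separation from vehicle did not hold with CPM divided by the TMM factors. Vehicle library 3 (factor 0.732) then lay above psilocybin library 3 (1.063) and MDMA libraries 1 and 3 (1.11 and 1.13). Against vehicle, the log2 difference of Notch3 was 0.9 ± 0.62 in psilocybin (interval -0.43 to 2.23; edgeR adjusted p = 0.542) and 0.78 ± 0.62 in MDMA (interval -0.54 to 2.11; edgeR adjusted p = 0.59), and neither passed. Against unstressed libraries it was -1.9 ± 0.63 in psilocybin (edgeR adjusted p = 0.433) and -2.01 ± 0.63 in MDMA (edgeR adjusted p = 0.379). These comparisons share the unstressed or the vehicle libraries. In fits of only the 6 libraries compared, those last differences passed, with edgeR adjusted p = 0.02 for psilocybin and 0.0325 for MDMA, while that of vehicle against unstressed did not (edgeR adjusted p = 0.285).

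The Notch3 call rested on a narrow margin. Its log2 difference stayed negative, between -3.48 and -2.39, when each of the 12 libraries was left out in turn. The edgeR adjusted p passed without vehicle library 2 (0.0195) or 3 (0.00887), where 3670 of 14454 and 987 of 14516 genes passed. It also passed without MDMA library 2 (0.0475), where 424 of 14424 genes did. It missed the threshold without vehicle library 1 (0.057), MDMA library 1 (0.0895) or MDMA library 3 (0.08). Leaving out any psilocybin library also ended the call (0.0865, 0.0908 and 0.0898 for libraries 1 to 3), as did leaving out any unstressed library (0.125, 0.0819 and 0.0978). The call was also lost with no filter on low counts (edgeR adjusted p = 0.0689), with DESeq2 size factors (0.057) and among only the genes with nearly the same exons (0.0578).

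Pdgfrb (chr18:61045150-61085061), the receptor through which endothelial cells recruit pericytes, did not pass in any comparison. It had 65.1, 96.8 and 89.5 CPM in psilocybin, 119, 130 and 143 CPM in MDMA, 62.6, 55.7 and 328 CPM in vehicle, and 231, 163 and 184 CPM in unstressed libraries. Psilocybin libraries lay below MDMA libraries, and both drug groups below unstressed ones, while vehicle library 3 was the highest of all 12. Without overlap, 8.33% of all genes tested were lower in psilocybin than in MDMA, 18.5% lower in psilocybin than in unstressed and 10.7% lower in MDMA than in unstressed libraries. The log2 difference was -1.22 ± 0.69 for psilocybin against vehicle (edgeR adjusted p = 0.425), and -1.2 ± 0.69 for psilocybin against unstressed (edgeR adjusted p = 0.919). The Pdgfrb value for vehicle against unstressed, 0.02 ± 0.68, turned on that library. Without vehicle library 3 it was -1.66 and passed the threshold (edgeR adjusted p = 0.0273), as did 987 of 14516 genes. The Pdgfrb difference between psilocybin and vehicle ran from -1.73 to 0.48 when single libraries were left out. That between MDMA and vehicle ran from -1.07 to 1.09.

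Cspg4 (chr9:56865033-56899870) encodes NG2, a proteoglycan of pericytes and also of oligodendrocyte precursors. It had 21, 25 and 22.3 CPM in psilocybin, 35.6, 70.3 and 23 CPM in MDMA, 12.4, 64.4 and 16.4 CPM in vehicle, and 107, 56.9 and 97.7 CPM in unstressed libraries. Only the psilocybin and unstressed groups did not overlap, and 18.5% of all genes tested likewise lay lower in psilocybin. For that comparison the fitted log2 difference was -1.93 ± 0.76 (edgeR adjusted p = 0.631). The annotations give Cspg4 11931 exonic bases in stressed and 8050 in unstressed libraries.

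**Figure D3:**
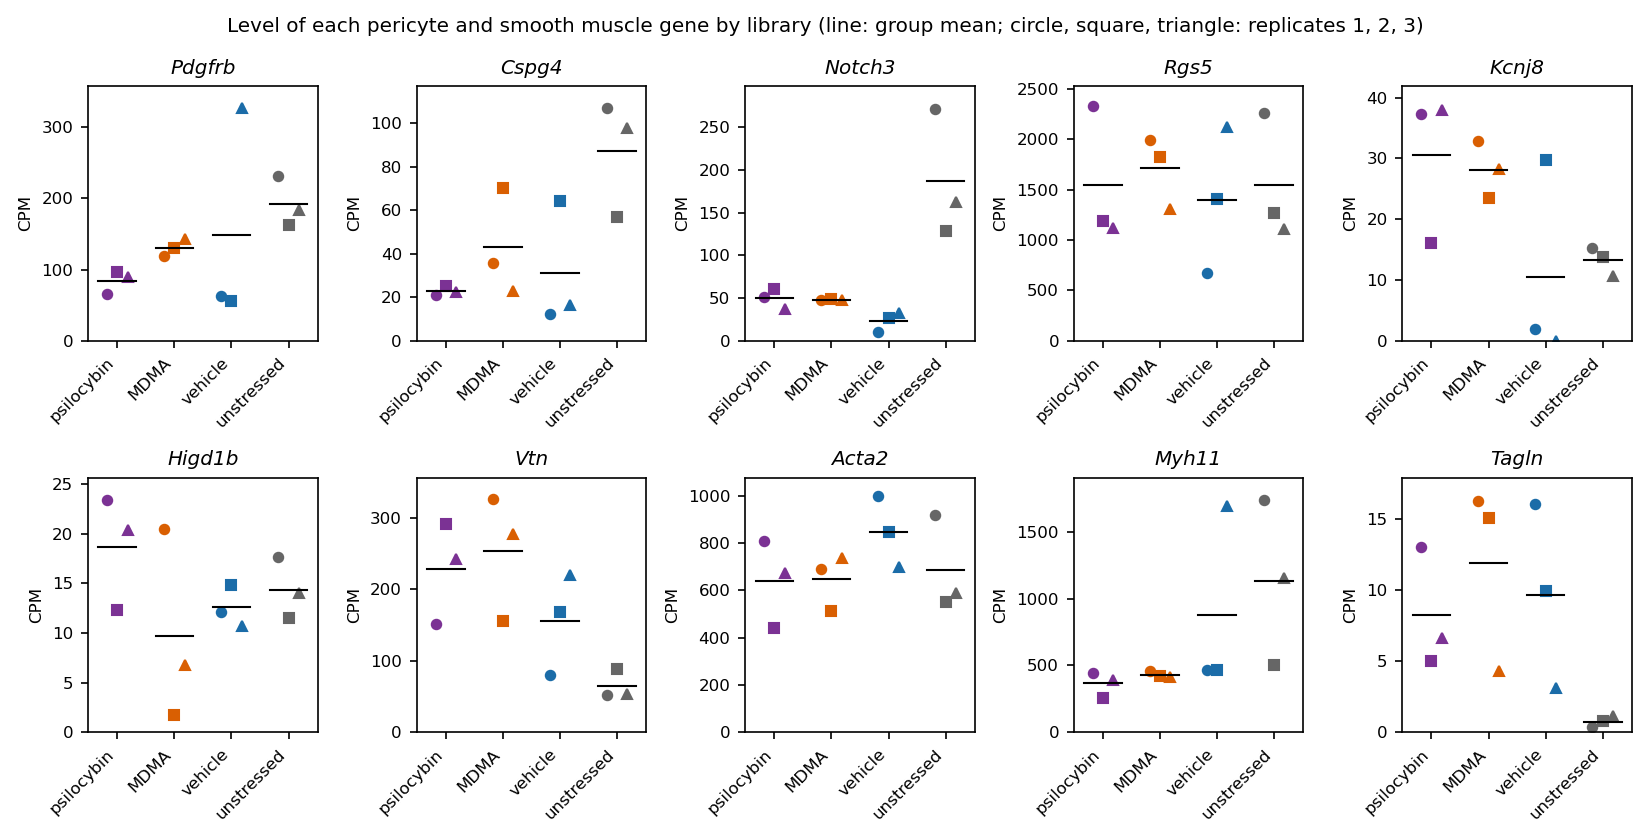
Each panel is a gene, each point a library (vertical axis, CPM; each panel has its own scale from 0) and each line a group mean, for psilocybin, MDMA, vehicle and unstressed libraries from left to right. Notch3 lies at 32.8 CPM or less in vehicle and at 128 CPM or more in unstressed libraries with the drug groups between, and vehicle library 3 stands apart for Pdgfrb and Myh11.

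Among the genes by which pericytes are usually recognised, Rgs5 showed the most similar group means. Rgs5 (chr1:169655501-169695813), a regulator of G protein signalling, had 2327, 1186 and 1116 CPM in psilocybin, 1998, 1822 and 1312 CPM in MDMA, 672, 1406 and 2120 CPM in vehicle, and 2264, 1270 and 1109 CPM in unstressed libraries. Each of the groups spanned much of the full range. Its 6 fitted log2 differences lay between -0.09 and 0.12 with SE of 0.52. The interval for vehicle against unstressed ran from -0.99 to 1.24, so true differences within those bounds are not excluded. Larger differences than those could also miss the adjusted threshold. Rgs5 has the same exons in both annotations.

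Kcnj8 (chr6:142564837-142571614), the pore subunit of the vascular ATP-sensitive potassium channel, varied most in the vehicle group. It had 37.3, 16.1 and 38 CPM in psilocybin, 32.8, 23.4 and 28.2 CPM in MDMA, 1.93, 29.7 and 0 CPM in vehicle, and 15.3, 13.7 and 10.7 CPM in unstressed libraries. Both drug groups lay above the unstressed group without overlap, as 18.3% of all genes tested did for psilocybin and 11.7% for MDMA. A count of 0 in vehicle library 3 allows a level of up to 1.54 CPM (3 counts, counting error only). Fitted against vehicle, the log2 difference of Kcnj8 was 1.73 ± 1.21 for psilocybin (edgeR adjusted p = 0.548) and 1.54 ± 1.2 for MDMA (edgeR adjusted p = 0.585). Without vehicle library 2, which has the fewest counts, they were 4.54 and 4.4 and passed (edgeR adjusted p = 0.0106 and 0.0111). In those fits 3536 of 14454 genes passed for psilocybin and 3613 for MDMA. The Kcnj8 value of vehicle against unstressed, -0.5 ± 1.18, was -3.32 without that library (edgeR adjusted p = 0.0311), where 3670 of 14454 genes passed.

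Vtn (chr11:78499091-78502324) encodes vitronectin, a matrix protein made by pericytes of the brain. It had 151, 291 and 242 CPM in psilocybin, 326, 156 and 278 CPM in MDMA, 79.8, 168 and 220 CPM in vehicle, and 51.9, 89 and 54 CPM in unstressed libraries. Both drug groups lay above the unstressed group without overlap, as 18.3% of all genes tested did for psilocybin and 11.7% for MDMA, and vehicle library 1 fell inside the unstressed range. Against unstressed libraries the log2 difference of Vtn was 1.82 ± 0.53 in psilocybin (edgeR adjusted p = 0.307), 1.9 ± 0.53 in MDMA (edgeR adjusted p = 0.273) and 1.52 ± 0.53 in vehicle (edgeR adjusted p = 0.129). None passed, although those of psilocybin and MDMA did without vehicle library 3 (edgeR adjusted p = 0.0496 and 0.0437). In those fits 129 and 104 of 14516 genes passed. That of vehicle did without vehicle library 2 (edgeR adjusted p = 0.0455), where 3670 of 14454 genes passed. The exons of Vtn hold 2030 bases in the annotation of the stressed libraries and 1745 in that of the unstressed ones.

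Higd1b (chr11:102835849-102838040), a mitochondrial protein gene enriched in pericytes, was low throughout. Psilocybin libraries had 23.4, 12.3 and 20.4 CPM, MDMA libraries 20.5, 1.75 and 6.81 CPM, vehicle libraries 12.1, 14.9 and 10.8 CPM, and unstressed libraries 17.6, 11.5 and 14 CPM of Higd1b. All 4 groups overlapped. Its widest fitted difference, psilocybin against MDMA, was 1.07 ± 0.93 (interval -0.92 to 3.05; edgeR adjusted p = 1).

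Of the contractile genes, Acta2 was the steadiest over the 12 libraries. Acta2 (chr19:34241090-34255590), smooth muscle alpha-actin, had 809, 442 and 672 CPM in psilocybin, 692, 514 and 735 CPM in MDMA, 999, 846 and 698 CPM in vehicle, and 920, 549 and 588 CPM in unstressed libraries. No pair of groups separated. Its log2 difference was -0.56 ± 0.38 for psilocybin against vehicle (interval -1.37 to 0.26; edgeR adjusted p = 0.535), -0.62 ± 0.38 for MDMA against vehicle (edgeR adjusted p = 0.456) and 0.48 ± 0.38 for vehicle against unstressed (edgeR adjusted p = 0.557). Acta2 counts were 1.49 times those of Rgs5 in vehicle library 1, against 0.282 to 0.602 times in the other 11 libraries.

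Myh11 (chr16:14194535-14291372), the smooth muscle myosin heavy chain, split the libraries differently. It had 443, 258 and 393 CPM in psilocybin, 459, 420 and 410 CPM in MDMA, 469, 464 and 1695 CPM in vehicle, and 1744, 503 and 1152 CPM in unstressed libraries. In CPM, both drug groups lay below the vehicle and the unstressed groups, by a small gap to vehicle libraries 1 and 2. Among all genes tested 2.62% were lower without overlap in psilocybin than in vehicle and 1.87% in MDMA than in vehicle, while 18.5% were lower in psilocybin than in unstressed and 10.7% in MDMA than in unstressed libraries. The gap to vehicle did not hold with CPM divided by the TMM factors. Vehicle library 2 (factor 1.127) then lay below psilocybin library 1 (0.95) and MDMA library 2 (0.967). Against vehicle, the log2 difference of Myh11 was -1.6 ± 0.63 in psilocybin (edgeR adjusted p = 0.222) and -1.42 ± 0.63 in MDMA (edgeR adjusted p = 0.263). Set against unstressed libraries it was -1.63 ± 0.63 in psilocybin (edgeR adjusted p = 0.624) and -1.45 ± 0.63 in MDMA (edgeR adjusted p = 0.903). Vehicle library 3 carried the Myh11 difference between psilocybin and vehicle, which was -0.35 without it. Without vehicle library 2 the difference was -2.04 and passed (edgeR adjusted p = 0.0359), as did 3536 of 14454 genes. The Myh11 difference between MDMA and vehicle ran from -1.8 to -0.16 when single libraries were left out. Myh11 counts were 2.43 times those of Acta2 in vehicle library 3 and 0.915 to 1.96 times in unstressed libraries, against 0.47 to 0.816 times in the other 8 libraries.

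Tagln (chr9:45929619-45936058) encodes transgelin, an actin-binding protein of smooth muscle, and its counts cannot be compared between stressed and unstressed libraries at face value. It had 13, 5 and 6.62 CPM in psilocybin, 16.3, 15 and 4.28 CPM in MDMA, 16, 9.9 and 3.07 CPM in vehicle, and 0.339, 0.748 and 1.11 CPM in unstressed libraries. The 3 stressed groups overlapped one another and none overlapped with the unstressed group. Of all genes tested 18.3% were likewise higher than unstressed in psilocybin, 11.7% in MDMA and 2.77% in vehicle. In the annotation of the stressed libraries 1241 of the 1988 exonic bases of Tagln are shared with Gm48529 and 639 lie in no other gene, while in that of the unstressed libraries 1361 of 1586 are shared with Pcsk7, which leaves 225. The log2 difference of Tagln was 3.74 ± 1.11 for vehicle against unstressed (edgeR adjusted p = 0.0791), and it did not pass for psilocybin (3.42 ± 1.1; edgeR adjusted p = 0.404) or MDMA (3.9 ± 1.12; edgeR adjusted p = 0.289). Without vehicle library 2 or 3 the first value passed (edgeR adjusted p = 0.0171 and 0.0338), as did 3670 of 14454 and 987 of 14516 genes.

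Over all comparisons the 10 genes gave few edgeR calls, as did the whole table. Psilocybin against vehicle called 0 of the 10 genes, where 0.0143% of all genes tested passed (2 genes, and 0 with the replicate number as a block), and MDMA against vehicle called 0 of 10, with a background of 0.674%. DESeq2 and limma voom also called 0 of 10 in these comparisons, but more of all 13945 genes than edgeR. DESeq2 called 1061 genes in psilocybin against vehicle and 1338 in MDMA against vehicle, and voom 436 and 887. At an unadjusted p under 0.05 in edgeR there was 1 of 10 genes in each comparison, Myh11 as lower, against 15.9% and 16.7% of all genes tested. Psilocybin against MDMA called 0 of 10 and 0% of all genes in edgeR, 0 of 10 with DESeq2 and voom, and 0 of 10 at an unadjusted p under 0.05, which 0.581% of all genes reached.

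Comparisons with the unstressed group differed more between tools. Psilocybin against unstressed called 0 of 10 in edgeR, with a background of 0.0861%. DESeq2 called 1 (Tagln, with 246 of all genes) and voom 0 (with 120 of all genes). In edgeR 5 of 10 had an unadjusted p under 0.05 (6.34% of all genes). MDMA against unstressed likewise called 0 of 10 in edgeR, with a background of 0.122%. DESeq2 called 1 (Tagln, with 219 of all genes) and voom 0 (with 148 of all genes). In edgeR 4 of 10 had an unadjusted p under 0.05 (4.98% of all genes). In fits of only the 6 libraries compared, 5 of 10 passed for psilocybin (Cspg4, Notch3, Pdgfrb and Vtn beside Tagln), where 1380 of 13370 genes did, and 2 of 10 for MDMA (Notch3 and Vtn), where 237 of 13453 did. In vehicle against unstressed 3 of 10 had an unadjusted p under 0.05 (18.5% of all genes). Any difference among the 4 groups was called for 0 of 10 in edgeR, with a background of 0.581%. It was called for 2 with DESeq2 (Notch3 and Tagln), which called 1424 of the 13945 genes, and for 0 with voom, which called 828. Unadjusted, 4 of 10 were under 0.05 there (14.3% of all genes), and Notch3 had the smallest edgeR adjusted p, 0.103.

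**Figure D4:**
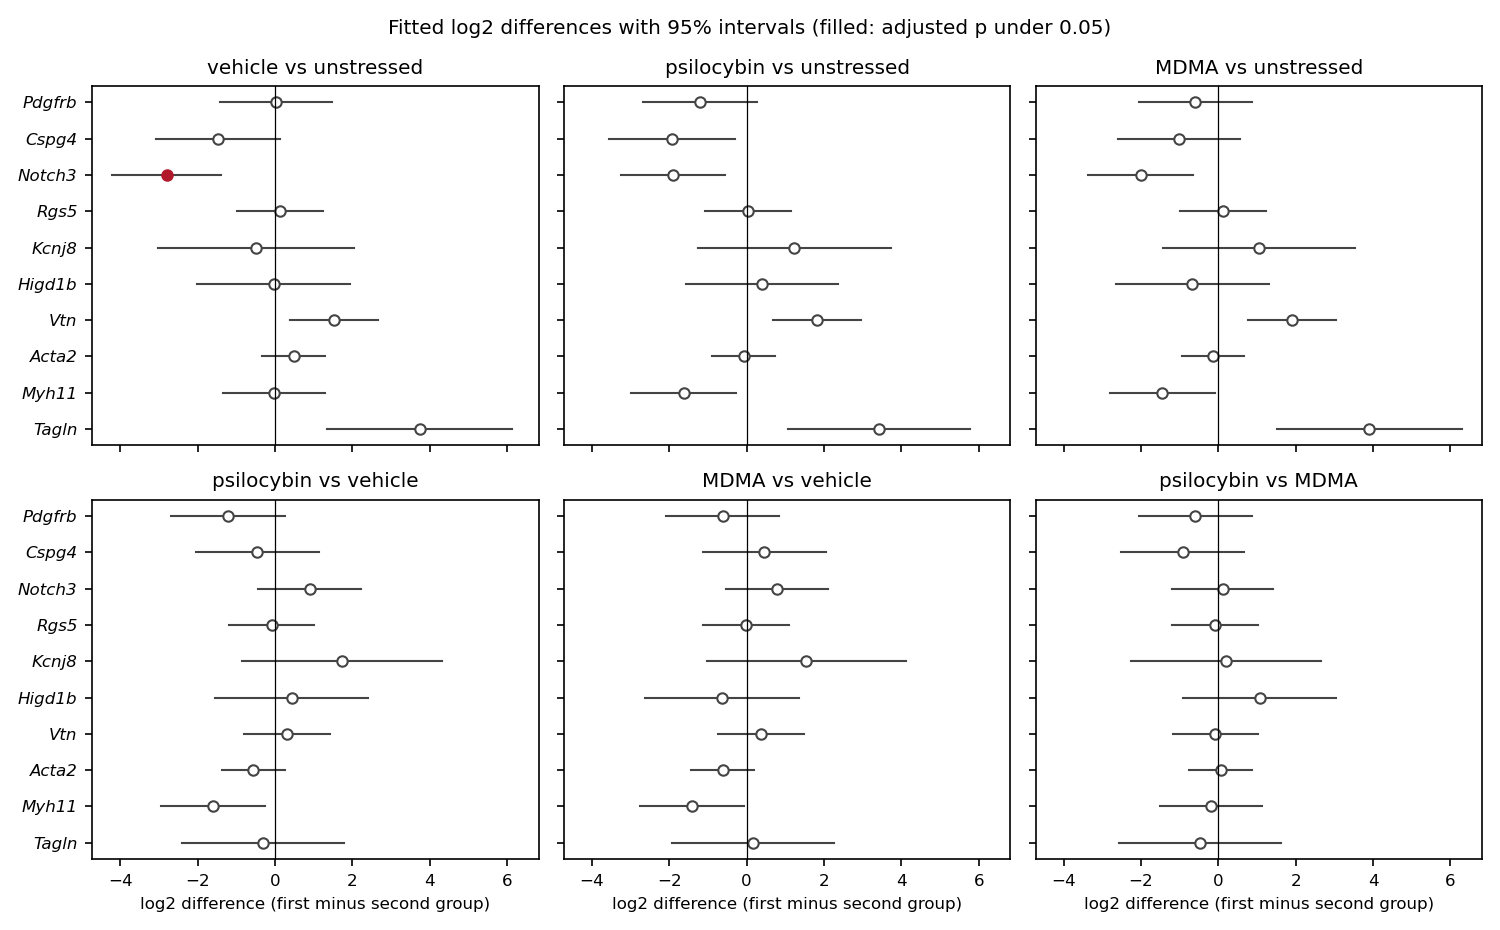
Points give the fitted log2 difference of each gene (horizontal axis, first minus second group named above the panel) with its 95% interval, and the filled point marks an edgeR adjusted p under 0.05. The filled point is Notch3 in vehicle against unstressed, at -2.8, and most intervals span 0.

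Genes of Notch, PDGF and TGF-beta signalling to mural cells, 24 listed and 24 tested, showed 2 lower calls in vehicle against unstressed, 1 higher call in MDMA against vehicle and none in psilocybin against vehicle. Over all genes tested, 3.21% were called lower in the first comparison, and 0.674% and 0.0143% were called in either direction in the others. Their median log2 difference was -0.36, 0.13 and 0.07 in these 3 comparisons, against -0.18, 0.24 and 0.31 over all genes tested. Both lower calls were Notch target genes. Hey2, a transcriptional repressor induced by Notch, had 0.276, 0 and 0.512 CPM in vehicle libraries, against 40.7, 27.2 and 36.2 CPM in unstressed ones. That is 2 counts over the vehicle group and 392 over the unstressed group (edgeR adjusted p = 0.0199). Relative to the summed deposited library totals, Hey2 was 109-fold higher in the unstressed group (95% counting interval 30 to 905). Hey2 was also higher in MDMA than in vehicle libraries. It had 27.2, 29 and 21.4 CPM in MDMA, or 290 counts against 2 (80.1-fold, interval 22 to 664; edgeR adjusted p = 0.0465). Psilocybin libraries had 24.3, 15 and 23.3 CPM of Hey2, or 216 counts against 2 (68.6-fold, interval 18.8 to 570; edgeR adjusted p = 0.0687), which did not pass. The 6 drug-treated libraries thus all lay above the 3 vehicle libraries for Hey2, as 16.8% of all genes did for MDMA and 20.8% for psilocybin.

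Nrarp, a target gene that feeds back on Notch signalling, had no count in the vehicle group, against 96, 47.1 and 78.2 CPM (824 counts) in unstressed libraries, at least 153-fold lower (floor of 3 counts over the group; edgeR adjusted p = 0.0257). Nrarp has 531 exonic bases of its own in the annotation of the stressed libraries and 2582 in that of the unstressed ones. Psilocybin libraries, counted like the vehicle libraries, had 0.888, 8.84 and 6.86 CPM of Nrarp, at least 11.4-fold above vehicle (edgeR adjusted p = 0.103), and MDMA libraries 5.05, 0.699 and 7.4 CPM, at least 10.7-fold above vehicle (edgeR adjusted p = 0.0929). Hey2 has 4593 exonic bases of its own for stressed and 2532 for unstressed libraries. Notch1, the main endothelial Notch receptor, had 11.9, 53.2 and 4.61 CPM in vehicle, against 117, 117 and 170 CPM in unstressed libraries (-2.6 ± 0.77; edgeR adjusted p = 0.0773). The other target genes of the list did not pass. Hes1 had 506, 552 and 109 CPM in vehicle, against 323, 293 and 141 CPM in unstressed libraries (0.7 ± 0.54; edgeR adjusted p = 0.546), while Hey1 gave -0.27 ± 0.63 (edgeR adjusted p = 0.869) and Heyl -0.45 ± 1.06 (edgeR adjusted p = 0.87).

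These calls also depended on single libraries. Hey2 in vehicle against unstressed passed without any of the 3 vehicle libraries or MDMA library 2, and its edgeR adjusted p was 0.0519 to 0.0888 without any other library. Nrarp passed without any of the 3 vehicle libraries, psilocybin library 1 or MDMA library 2, and had 0.0585 to 0.0888 otherwise. Hey2 in MDMA against vehicle passed without vehicle library 2 or 3, with 0.0657 to 0.121 without any other library. Fits of only the 6 libraries compared ended all 3 calls (edgeR adjusted p = 0.269 for Hey2 and for Nrarp against unstressed, and 0.533 for Hey2 in MDMA against vehicle). DESeq2 size factors ended the Hey2 call of MDMA against vehicle (edgeR adjusted p = 0.0564).

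**Figure D5:**
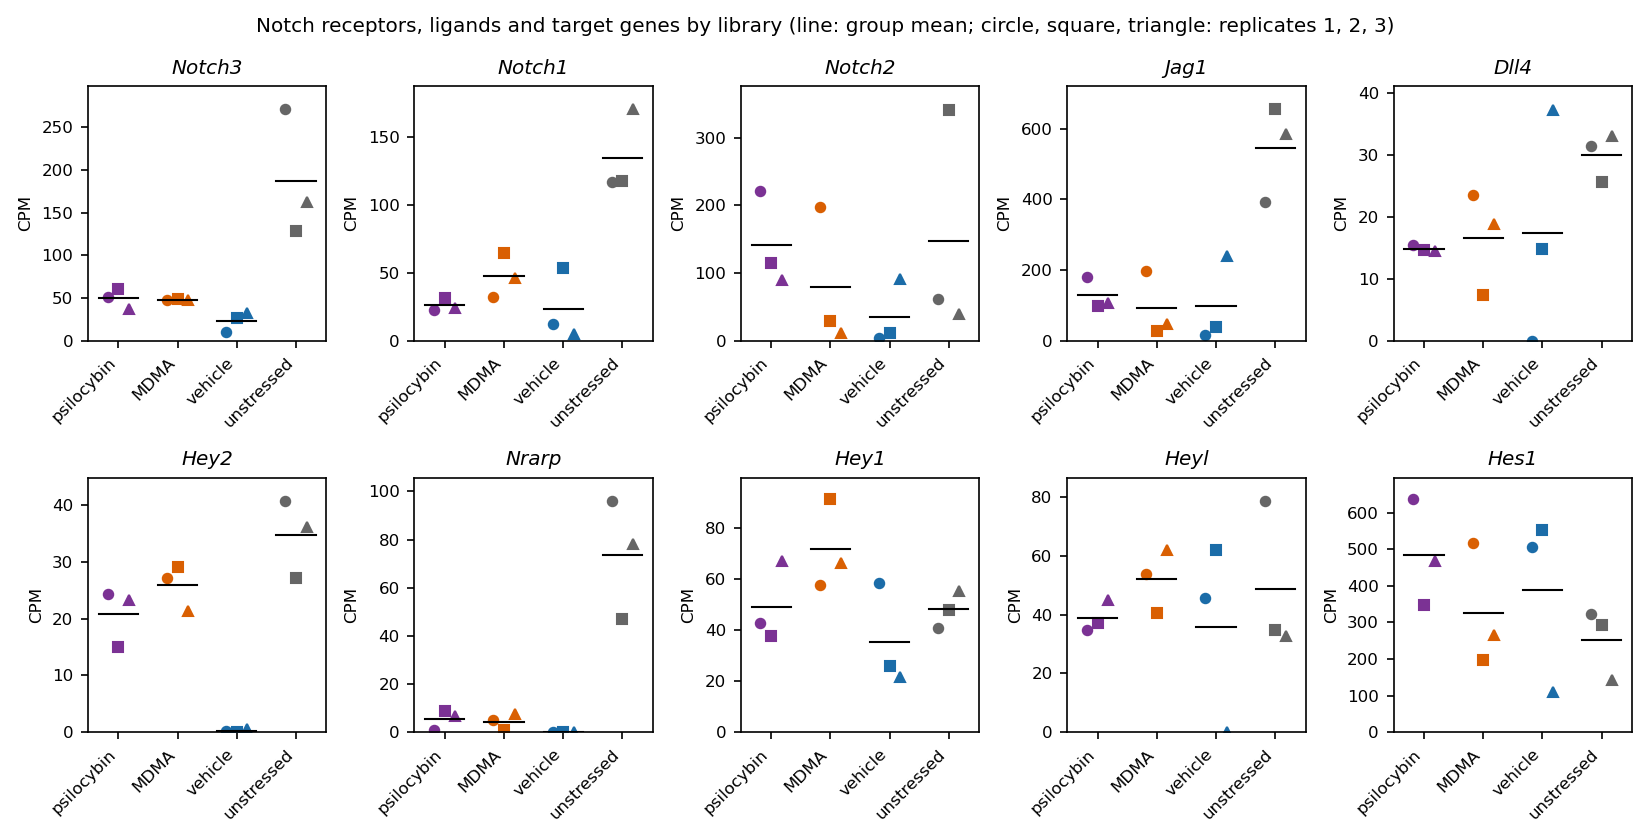
Each panel is a Notch receptor, ligand or target gene, each point a library (vertical axis, CPM; each panel has its own scale from 0) and each line a group mean, for psilocybin, MDMA, vehicle and unstressed libraries from left to right. Hey2 lies at 0 to 0.512 CPM in vehicle libraries and at 15 to 40.7 CPM in the 9 others, while for Hes1 and Hey1 the vehicle group overlaps with each of the others.

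In the same list, Pdgfd, a PDGFRB ligand, had 229, 93.7 and 304 CPM in MDMA, against 318, 305 and 443 CPM in vehicle libraries (-1.1 ± 0.49; edgeR adjusted p = 0.267). Tgfb1, a growth factor that promotes the contractile state, had 4.44, 4.23 and 4.41 CPM in psilocybin, against 15.2, 26 and 35.8 CPM in vehicle libraries (-2.78 ± 0.9; edgeR adjusted p = 0.145). Neither passed. Neither pair of groups overlapped, and 1.87% of all genes tested were lower without overlap in MDMA than in vehicle and 2.62% in psilocybin than in vehicle.

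Of the 15 other contractile smooth muscle genes, all tested, 1 was called, as lower in vehicle against unstressed, where 3.21% of all genes were. Actg2, smooth muscle gamma-actin, had no count in the vehicle group, against 18.3, 6.98 and 9.1 CPM (123 counts) in unstressed libraries, at least 22.8-fold lower (floor of 3 counts over the group; edgeR adjusted p = 0.041). Psilocybin libraries had 11, 3.46 and 9.32 CPM of Actg2, at least 17.8-fold above vehicle (edgeR adjusted p = 0.0941), and MDMA libraries 13.2, 1.4 and 14.8 CPM, at least 23.4-fold above vehicle (edgeR adjusted p = 0.0688). The Actg2 call held without vehicle library 2 or 3 or MDMA library 2, and its edgeR adjusted p was 0.0786 to 0.0912 without any other library. It was lost in a fit of only the 6 libraries compared (edgeR adjusted p = 0.269). The list's median log2 difference was -0.46 in vehicle against unstressed, -0.25 in psilocybin against vehicle and -0.12 in MDMA against vehicle. The next smallest p in vehicle against unstressed belonged to Kcnmb1, a subunit of the smooth muscle calcium-activated potassium channel (-3.08 ± 1.36; edgeR adjusted p = 0.242), and Tpm2, beta-tropomyosin (0.92 ± 0.46; edgeR adjusted p = 0.3).

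Myocd, the co-activator myocardin, followed Myh11 in its library pattern. It had 13.3, 9.61 and 15.9 CPM in psilocybin, 21.3, 7.34 and 28.8 CPM in MDMA, 13.3, 12.4 and 227 CPM in vehicle, and 233, 125 and 166 CPM in unstressed libraries. Vehicle library 3 thus stood with the unstressed libraries and vehicle libraries 1 and 2 with the drug groups. The log2 difference of Myocd was -3.16 ± 1.07 for psilocybin against vehicle (edgeR adjusted p = 0.161) and -2.69 ± 1.04 for MDMA against vehicle (edgeR adjusted p = 0.196). In the same 2 comparisons Cald1, which encodes the actin-binding caldesmon, gave -1.05 ± 0.58 for psilocybin (edgeR adjusted p = 0.413), and Pln, phospholamban, a regulator of the calcium pump, gave -1.57 ± 1.02 for MDMA (edgeR adjusted p = 0.489).

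None of the 12 other pericyte genes was called in these 3 comparisons. Their median log2 difference was 0.24 in vehicle against unstressed, 0.18 in psilocybin against vehicle and 0.24 in MDMA against vehicle. P2ry14, a receptor for UDP-sugars, had 24.3, 18.8 and 25.5 CPM in psilocybin, 33.6, 25.2 and 25.1 CPM in MDMA, 12.7, 29.7 and 227 CPM in vehicle, and 4.75, 10.5 and 15.8 CPM in unstressed libraries. Its high value again came from vehicle library 3, and its own exonic bases number 11059 for stressed against 2497 for unstressed libraries. None of its log2 differences passed: 3.54 ± 1.06 for vehicle against unstressed (edgeR adjusted p = 0.0809), -2.4 ± 1.01 for psilocybin against vehicle (edgeR adjusted p = 0.26) and -2.17 ± 1 for MDMA against vehicle (edgeR adjusted p = 0.292). Tbx18, a transcription factor of mural cells, had 18.4, 8.46 and 19.1 CPM in psilocybin, 28.3, 28.7 and 29.2 CPM in MDMA, 46.1, 16.1 and 123 CPM in vehicle, and 42, 35.4 and 57.1 CPM in unstressed libraries. The log2 difference of Tbx18 was -2.38 ± 0.86 for psilocybin against vehicle (edgeR adjusted p = 0.185) and -1.53 ± 0.83 for MDMA against vehicle (edgeR adjusted p = 0.39). Abcc9, which encodes the sulphonylurea receptor partner of the Kcnj8 channel, gave -1.71 ± 0.78 for psilocybin against vehicle (edgeR adjusted p = 0.3), with 177 CPM in vehicle library 3, where Kcnj8 had 0 counts. Atp13a5, an ATPase gene of brain pericytes, had 107 counts in MDMA libraries, against 0 in vehicle libraries, at least 19.7-fold higher (edgeR adjusted p = 0.149). Of those MDMA counts most came from library 1, at 25.8 CPM, against 0.35 and 2.72 CPM in libraries 2 and 3. Atp13a5 had 40 counts in unstressed libraries, so the vehicle group was at least 7.43-fold lower (edgeR adjusted p = 0.23). Mcam, a cell adhesion molecule shared with endothelium, gave -1.46 ± 0.8 for vehicle against unstressed (edgeR adjusted p = 0.358).

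Vehicle library 3 departed from the other libraries in several mural genes at the same time. It held the highest levels among the 12 libraries of Pdgfrb, Abcc9, Tbx18 and P2ry14, and it had 0 counts of Kcnj8, Cnn1 (calponin), Ndufa4l2, Anpep and Heyl. Cnn1, for example, had 26.9 to 50.3 CPM in psilocybin, 43.7 to 51.2 CPM in MDMA, 33.4 and 40.9 CPM in vehicle libraries 1 and 2, and 27.2 to 104 CPM in unstressed libraries. Of the 12 other pericyte genes, 4, 2 and 1 were at 0 in vehicle libraries 3, 1 and 2. Of the 15 other contractile genes, 3 were at 0 in vehicle library 3 and 3 in vehicle library 1, against 1 in vehicle library 2. Zeros were not particular to mural genes. Vehicle library 3 had a count for 9522 of the 27588 joined genes, the fewest of the 12 libraries. At 0 there were 5 of the 10 monocyte, 1 of the 12 fibroblast and 1 of the 12 endothelial markers. In vehicle library 1 these numbers were 7, 5 and 0. The genes named here were chosen after their values were seen.

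Across the 9 stressed libraries, which share an annotation, the 10 genes did not vary as a block. Pairwise Pearson correlations of log2 CPM among them ran from -0.745 for Myh11 with Kcnj8 to 0.766 for Vtn with Notch3, with Spearman values of -0.4 and 0.317. Pdgfrb and Myh11 gave a Pearson r of 0.68 and a Spearman rho of -0.083. The points share library depth and the number of genes detected, so these are descriptions of 9 libraries. Among 12049 genes with a mean of at least 5 CPM, those most like each gene by Pearson r over these 9 libraries were Synpo, Fut8 and Pcgf3 for Pdgfrb (0.952 to 0.987), Gtpbp4, Farsa and Traf3ip1 for Notch3 (0.965 to 0.977), and Ccdc18, Gabre and Fads6 for Cspg4 (0.948 to 0.954). For Rgs5 they were Myof, Tmtc1 and Nfic (0.896 to 0.901), for Vtn Sirpa, Mmd2 and Dcaf7 (0.928 to 0.952), and for Higd1b Zfyve21, Smim5 and Fbxo46 (0.923 to 0.948). For Acta2 they were Morf4l2, Anxa3 and Tgtp1 (0.887 to 0.919), for Myh11 Nexn, Rmi1 and H2-K1 (0.97 to 0.975), and for Tagln Myo10, Cebpg and Elk3 (0.938 to 0.968). Spearman values were 0.517, 0.667 and 0.383 for Nexn, Rmi1 and H2-K1 with Myh11, for which vehicle library 3 stood apart, and 0.717 to 1 for the other 24 genes. None of the 27 is another of the 10 genes or a gene of the 3 mural lists.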

How the data were processed

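Each of the 12 libraries was deposited as raw counts, whole numbers of reads for each gene. The submitters' processing notes name mm10 and the tools edgeR 3.42.4, featureCounts 2.0.1, STAR 2.7.5c, MultiQC 1.11, FastQC 0.11.9 and fastp 0.23.2. Per the file headers, unstressed libraries were counted by featureCounts over RefSeq exons with no strand option. Stressed libraries carry Ensembl identifiers, and the sources used here do not give their release and command. The joint table repeats 9 of these files as identical columns, and its 3 columns of no sample were not analysed here. Antisense and overlapping genes could share reads, and depth limits precision, with intervals and floors covering counting error only.

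Annotations were joined through GENCODE vM21 for GRCm38 (mm10): 26664 genes by symbol and locus and 924 by position, which hold 94.8% to 99.1% of a library's counts, and 7249 had nearly the same exons (Jaccard index of at least 0.9, unshared length within 1.1 times), 3 of the 10 genes among them (Rgs5, Kcnj8, Notch3). Genes were filtered with filterByExpr, leaving 13945. EdgeR 4.0.16 quasi-likelihood tests (R 4.3.3, TMM) ran over all 12 libraries with Benjamini-Hochberg adjustment at 0.05, without a replicate block. SE come from the test statistic and 95% intervals from its t distribution. The code was tested on simulated data. Alternatives used DESeq2 1.42.0, limma 3.58.1 voom, other scalings, filters and sets of libraries.

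Groups and replicate numbers come from the sample titles. Deviations from the group means correlated at 0.119, 0.22 and 0.124 between same-numbered psilocybin and vehicle libraries. For MDMA with psilocybin the values were 0.246, 0.025 and 0.212, and for vehicle with unstressed 0.019, 0.127 and 0.102. Libraries with different numbers were not compared in this way, so these values cannot show whether the numbers pair libraries. The members and lists were chosen with earlier results of these data known. Named genes are the 10 members, list genes past the threshold, the 3 with the smallest p per list in the comparisons with vehicle and of vehicle with unstressed, and the 3 most correlated genes of each member with counts in all 9 stressed libraries. Genes named to describe vehicle library 3, and Hes1, Hey1 and Heyl, were chosen after their values were seen.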

Additional observations from a re-analysis of the deposited data

How the results depend on the processing

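The number of the 10 genes past the threshold depended on the setting wherever vehicle or unstressed libraries entered. Leaving out vehicle libraries 1 and 3 leaves 1 vehicle library, the one with the fewest counts, and calls of that fit are not listed. For vehicle against unstressed the number was 1, and 3 with DESeq2 (1750 of all 13945 genes called) and 2 with limma voom (1405). It was 0 with DESeq2 size factors, no filter, only the 6 libraries compared or the replicate block. Only genes with nearly the same exons (3 of the 10) also gave 0. Without a single replicate it was 0 to 4. The 4 came without vehicle library 2, with 3670 of 14454 genes called. Without vehicle library 3 it was 3, with 987 of 14516. For psilocybin against unstressed it was 0, and 1 with DESeq2 (246 of all genes). It was 5 with only the 6 libraries compared (1380 of 13370) and 0 to 1 without a single replicate. For MDMA against unstressed it was 0, and 1, 2 and 0 to 1 under the same settings (219 and 237 of all genes in the first 2). For any difference it was 0, and 2 with DESeq2 (1424) and 0 to 2 without a single replicate. Without a single replicate it was 0 to 2 for psilocybin against vehicle and 0 to 1 for MDMA against vehicle, in both through vehicle library 2, and psilocybin against MDMA stayed at 0 throughout. The replicate block gave 0 in all 7 tests and changed no call of the 10 genes but Notch3 (log2 difference -2.83, edgeR adjusted p = 0.0988). It also ended those of Hey2, Nrarp and Actg2 in vehicle against unstressed (edgeR adjusted p = 0.0855, 0.0922 and 0.0969) and of Hey2 in MDMA against vehicle (edgeR adjusted p = 0.15), as did fits of only the 6 libraries compared (edgeR adjusted p = 0.269 for the first 3 and 0.533 for the last). The numbers are not shown to pair libraries of any groups, with correlations of -0.102 to 0.323 between same-numbered libraries. Without the filter or with DESeq2 size factors the Notch3 difference of vehicle against unstressed was -2.69 and -2.57 (edgeR adjusted p = 0.0689 and 0.057). The cause of these changes was not tested.

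Over all genes, calls ranged from 2 to 3670 in vehicle against unstressed, 0 to 3536 in psilocybin against vehicle and 0 to 3613 in MDMA against vehicle. They ranged from 0 to 1380 in psilocybin against unstressed, 0 to 415 in MDMA against unstressed and 0 to 2477 for any difference. The highest numbers in the first 3 and for any difference came without vehicle library 2. Scaling moved the median log2 difference of all genes in vehicle against unstressed from -0.18 to 0 with DESeq2 size factors and -0.27 with library totals. Of 1278 recomputed log2 differences of the 10 genes, 1150 kept direction and side of the threshold, 14 lost it, 30 gained it and 84 changed sign, 52 of these by leaving out a single library.

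Sign changes were mostly of values near 0. For vehicle against unstressed, Pdgfrb was -0.33 with library totals, -0.78 with voom and -0.38 with the block. Without vehicle libraries 1 and 3, with 1 vehicle library left, Pdgfrb was -1.93. Rgs5 was -0.11 with library totals, -0.17 with voom and, without those libraries, -0.27. Myh11 was 0.22 with DESeq2 or its size factors and 0.08 with no filter, Higd1b 0.17, 0.08, 0.03 with voom and 0.04 with the block, and Kcnj8 1.04 without vehicle libraries 1 and 3. Without those libraries, psilocybin against vehicle gave 0.75 for Pdgfrb and 0.33 for Rgs5, and MDMA against vehicle 1.36 for Pdgfrb, 0.42 for Rgs5, 0.02 for Myh11 and -0.42 for Cspg4. Rgs5 was 0.12 with library totals and 0.19 with voom in psilocybin against vehicle, 0.29 and 0.31 in MDMA against vehicle, and -0.0079 with DESeq2 or its size factors in psilocybin against unstressed. In MDMA against vehicle Pdgfrb was 0.2 with voom and Tagln -0.0055 with DESeq2. In psilocybin against MDMA Acta2 was -0.03 with library totals or only the 6 libraries, and Actg2 0.14 with voom and 0.02 with the block. Leaving out a single library gave these ranges across 0. In vehicle against unstressed Pdgfrb ran from -1.66 to 0.52, Rgs5 from -0.6 to 0.54, Myh11 from -1.26 to 0.46, Kcnj8 from -3.32 to 0.09 and Higd1b from -0.13 to 0.19. In psilocybin against vehicle Pdgfrb ran from -1.73 to 0.48, Rgs5 from -0.57 to 0.65, Tagln from -0.87 to 0.36, Cspg4 from -0.82 to 0.26 and Vtn from -0.03 to 0.93. In MDMA against vehicle Pdgfrb ran from -1.07 to 1.09, Rgs5 from -0.36 to 0.74, Tagln from -0.2 to 0.83 and Cspg4 from -0.28 to 1.26. In psilocybin against MDMA Rgs5 ran from -0.57 to 0.14, Acta2 from -0.2 to 0.24, Kcnj8 from -0.04 to 0.45, Vtn from -0.32 to 0.12, Notch3 from -0.08 to 0.32, Nrarp from -0.11 to 0.9 and Actg2 from -0.68 to 0.17. In psilocybin against unstressed Rgs5 ran from -0.45 to 0.39 and Acta2 from -0.33 to 0.18, and in MDMA against unstressed Rgs5 from -0.0069 to 0.54, Acta2 from -0.25 to 0.16 and Actg2 from -0.68 to 0.18.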
